A study of Homo sapiens with 6 samples.

Results

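The 8 microRNAs described here are the members of the miR-200 family and miR-205, the small RNAs best known for guarding the epithelial state. They were chosen by name from the probes of the array and not by a rule on measured values. Earlier results of these data were known at the time. They are 8 of the 2555 human miRNAs the array carries. They comprise the 3p arms of miR-200a, miR-200b, miR-200c and miR-141, miR-429, the 5p arms of miR-200a and miR-200b, and miR-205-5p. HuCCT1, spelled HuccT1 in the sample labels, is an established human cholangiocarcinoma (CCA) cell line, a line of malignant bile duct epithelium. The cells received 0 ng/ml TGF-β (control, 3 arrays) or 10 ng/ml TGF-β (3 arrays) for 72 h, and total RNA of each sample was labeled with Cy5 and hybridised to a 1-colour 3D-Gene miRNA array. The question was which miRNAs change when TGF-β drives epithelial-mesenchymal transition (EMT). The labels do not say whether the 3 samples of a group were separate cultures, so the p-values measure the spread between these samples, which may be technical. As the RNA is from whole cultures, fewer cells with a miRNA and less of it per cell cannot be told apart.

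A miRNA finds its messenger RNA targets mainly through its seed, the bases near its 5′ end that pair with the target. The miR-200 family and miR-205 repress ZEB1 and ZEB2, transcription factors that silence E-cadherin, and the ZEB factors in turn silence the miR-200 genes. In many epithelial cells this loop keeps the family high while the cells are epithelial and low once they have passed through EMT.

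The mature sequences show how closely the members resemble each other and where the seeds part. All 8 were matched by name to RefSeq (GRCh38.p14), and they are written 5′ to 3′ with the seed, bases 2 to 8, in capitals.
hsa-miR-200b-3p: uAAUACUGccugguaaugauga
hsa-miR-200c-3p: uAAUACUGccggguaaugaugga
hsa-miR-429: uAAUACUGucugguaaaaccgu
hsa-miR-200a-3p: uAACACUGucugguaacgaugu
hsa-miR-141-3p: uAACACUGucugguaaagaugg
hsa-miR-200b-5p: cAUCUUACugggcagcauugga
hsa-miR-200a-5p: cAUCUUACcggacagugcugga
hsa-miR-205-5p: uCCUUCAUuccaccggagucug

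The first 3 of these miRNAs shared the seed AAUACUG, and miR-200a-3p and miR-141-3p shared AACACUG. The 5p arms of miR-200a and miR-200b shared AUCUUAC, and miR-205-5p had the seed CCUUCAU to itself, and no other mature miRNA in the RefSeq table used here had any of these seeds. Counted from 1 at the 5′ end, miR-200b-3p and miR-200a-3p differed inside the seed by U4C. Within a seed group the sequences were closer still. Over 22 compared positions, miR-200b-3p and miR-200c-3p differed by U11G and A22G, with 1 more base at the end of miR-200c-3p. The pair miR-200a-3p and miR-141-3p differed by C17A and U22G. The signals of such near-identical miRNAs are uncertain to the extent that an array probe binds its neighbour, which was not tested.

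The seed groups cut across the genes. MIR200B, MIR200A and MIR429 lie within 1984 bases of chromosome 1, inside the long noncoding gene MIR200BHG. Their 3p arms are at chr1:1167160-1167181 (miR-200b-3p), chr1:1167916-1167937 (miR-200a-3p) and chr1:1169055-1169076 (miR-429). MIR200C and MIR141 lie within 493 bases of chromosome 12, inside MIR200CHG, with the 3p arms at chr12:6963742-6963764 and chr12:6964155-6964176. MIR205 lies apart on chromosome 1 inside MIR205HG, with miR-205-5p at chr1:209432166-209432187. All 6 precursors are on the plus strand. Each miR-200 cluster therefore holds both seeds, and each seed is made from both clusters.

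Detection set the limits of what could be compared. An array's blank spots, which carry no probe, numbered 229, and a miRNA was called detected on an array when its spot exceeded their mean by 2 SD. The mean blank brightness was 30.7, 54.8 and 29.5 on control arrays 1 to 3 and 82.3, 76.2 and 42.5 on TGF-β arrays 1 to 3. The highest blank levels were thus on TGF-β arrays 1 and 2, followed by control array 2. Between 327 and 464 human miRNAs were detected per array, and the log2 signals of the arrays correlated at r = 0.961 to 0.985 among controls, 0.941 to 0.981 among TGF-β arrays and 0.944 to 0.979 between the groups. Of the 8 members, 5 were detected on all 6 arrays, miR-429 on 5 arrays, and the 5p arms of miR-200a and miR-200b on none.

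**Figure D1:**
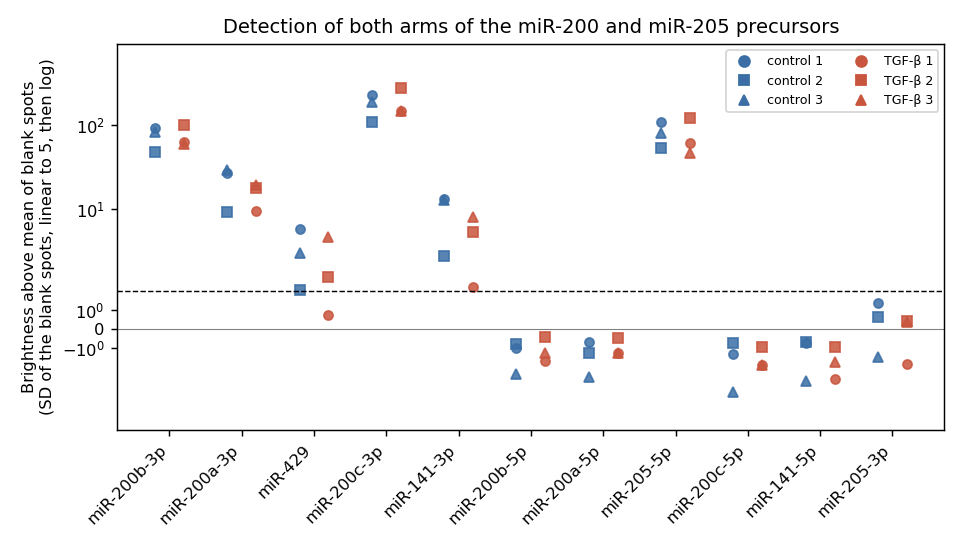
Brightness of each array's spot above the mean of its blank spots, in SD of the blank spots (y axis, linear to 5 and logarithmic beyond), for the members and the 3 other arms of their precursors on the 3 control and 3 TGF-β arrays; the dashed line is the detection limit of 2 SD. MiR-200c-3p lay between 108 and 272 SD on every array, miR-141-3p came down to 2.23 SD, and every 5p arm of the miR-200 family lay below the blank mean.

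Only the 3p arms of the miR-200 family gave a signal in HuCCT1. The precursors show both arms, with the mature stretches in capitals and the 5p arm first.
MIR200B: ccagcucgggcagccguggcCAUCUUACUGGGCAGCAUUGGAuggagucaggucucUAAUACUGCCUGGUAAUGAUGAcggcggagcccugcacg
MIR200C: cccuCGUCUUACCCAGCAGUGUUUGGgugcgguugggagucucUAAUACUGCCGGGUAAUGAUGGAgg
MIR205: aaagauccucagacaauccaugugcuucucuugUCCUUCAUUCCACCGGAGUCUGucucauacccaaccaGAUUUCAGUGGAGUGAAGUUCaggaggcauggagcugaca

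The 5p arm of miR-200b lay between 2.37 and 0.41 SD below the blank mean, where its 3p arm lay 48.0 to 99.5 SD above it. The 5p arm of miR-200a lay at -2.57 to -0.48 SD and its 3p arm at 9.25 to 29.4 SD. The other arms of the remaining precursors, which are not among the 8, behaved alike on the same scale, with -3.36 to -0.72 SD for miR-200c-5p and -2.76 to -0.70 SD for miR-141-5p. For miR-205 the detected arm was the 5p arm, at 46.1 to 121 SD, and miR-205-3p lay at -1.86 to 1.38 SD. These 5 arms were detected on no array of either group, so no change between groups could be given for them, and the planned contrasts of 5p against 3p could not be made. Different probes bind with different strength, so a spot below the blank mean gives no ratio between the arms.

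For the comparison of groups, spots less the blank mean were multiplied by 1 factor per array that brought the 292 miRNAs detected on all 6 arrays to a common median of 25. The result is called the scaled signal. Expressed miRNAs are those that every array of the control group, of the TGF-β group or of both detected, which held for 323 miRNAs and for 6 of the 8 members. With limma, 0 of the 323 (0%) had an adjusted p under 0.05, and 21 (6.5%) had an unadjusted p under 0.05. Among the 6 expressed members none passed either threshold in this fit. The median log2 change, TGF-β minus control, was 0.09 over the 6 expressed members (4 above 0 and 2 below, -0.65 to 0.40) and 0.01 over all expressed miRNAs (165 above 0 and 158 below, -0.91 to 1.18). MiR-429, among the 4 above 0, was not detected on TGF-β array 1 and was set to that array's lowest detected signal. With signals as measured its change was -0.48, and the median was 0.025 over the members and 0.0025 over all expressed miRNAs.

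MiR-200c-3p, which with miR-141 is made from the chromosome 12 cluster and carries the AAUACUG seed, had the most uniform difference. Its scaled signal was 205, 232 and 194 on control arrays 1 to 3 and 268, 284 and 278 on TGF-β arrays 1 to 3. Every TGF-β array was above every control array, and the TGF-β arrays lay close together. The mean was 210 ± 19.1 (SD, n = 3) in control cells and 276 ± 7.91 (SD, n = 3) in TGF-β cells, a ratio of 1.31. The log2 change was 0.40 ± 0.18 (SE; 95% interval -0.0051 to 0.80), with a limma p of 0.052 and an adjusted p of 0.70. The 2-sided exact permutation test gave p = 0.1, the smallest that 3 arrays against 3 allow. The change was the 38th from the top among the 323 expressed miRNAs.

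MiR-200b-3p, the chromosome 1 member with the same seed, was also higher on every TGF-β array, by a narrow margin. Its scaled signal was 82.9, 103.2 and 86.5 on control arrays 1 to 3 and 116, 103.8 and 113 on TGF-β arrays 1 to 3. TGF-β array 2 was barely above control array 2, the highest control. The means were 90.9 ± 10.8 and 111 ± 6.53 (SD, n = 3 each), a ratio of 1.22. The log2 change of 0.30 ± 0.18 (SE) had an interval of -0.12 to 0.72 and an adjusted p of 0.89 with limma.

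These 2 miRNAs were the only expressed members whose groups did not overlap. Over all expressed miRNAs, 9.91% did not overlap, 7.12% with TGF-β higher and 2.79% with TGF-β lower, and 0 of the 6 members had TGF-β lower on every array. The separation depended on the scaling. In the values normalized by the authors, also set to a median of 25 but over all miRNAs listed for each array, the 3 control arrays gave miR-200c-3p as 541, 336 and 353 and the 3 TGF-β arrays as 359, 628 and 380. On that scale the groups overlapped and the ratio was 1.11, while miR-200b-3p had a ratio of 1.03 and also overlapped. In the authors' values the median log2 change was -0.27, a shift of -0.28 from the main scaling. It is taken over the 349 miRNAs listed on every array of a group, a different set from the 323 of the main scaling. Relative to that median miR-200c-3p was higher by 0.41 and miR-200b-3p by 0.30, against 0.38 and 0.28 in the main scaling.

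MiR-205-5p, which acts on the ZEB factors from a gene of its own, had overlapping groups. Its scaled signal was 99.3, 115 and 83.9 on control arrays 1 to 3 and 112, 127 and 88.8 on TGF-β arrays 1 to 3. The lowest array of each group was array 3 and the highest array 2, and the groups overlapped. The means were 99.6 ± 15.8 and 109 ± 19.1 (SD, n = 3 each). The log2 change of 0.13 ± 0.22 (SE; interval -0.37 to 0.63; limma adjusted p = 0.99) was -0.13 in the values normalized by the authors and -0.087 when each array was scaled on its own detected probes. Leaving out 1 array gave 0.011 to 0.27. The 2 scalings also moved the median of all expressed miRNAs below 0.

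**Figure D2:**
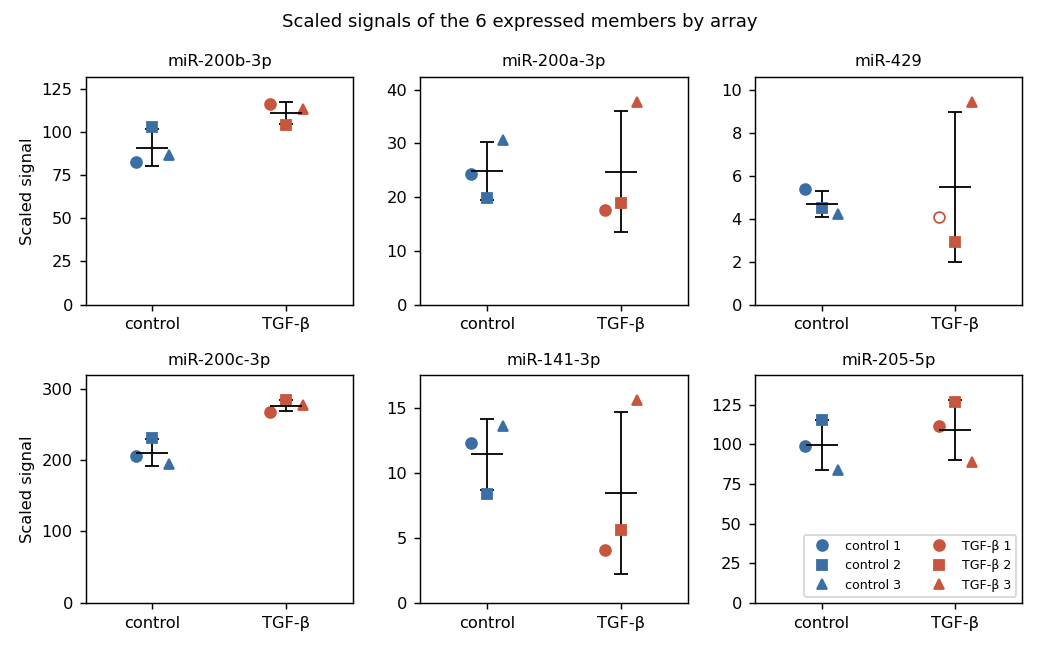
Scaled signal (y axis, linear from 0, with its own range for each miRNA) of the 6 expressed members on the 3 control and 3 TGF-β arrays, with the mean and SD of each group; the open circle is miR-429 on TGF-β array 1, where it was not detected and is drawn at that array's lowest detected signal. The groups were apart for miR-200c-3p (194 to 232 against 268 to 284) and miR-200b-3p, and TGF-β array 3 stood above every control for miR-200a-3p, miR-141-3p and miR-429.

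MiR-141-3p, the partner of miR-200c on chromosome 12, had the largest difference of the members by size, and its TGF-β arrays disagreed. Its scaled signal was 12.3, 8.34 and 13.6 on control arrays 1 to 3 and 4.10, 5.63 and 15.6 on TGF-β arrays 1 to 3. TGF-β arrays 1 and 2 were below every control, and TGF-β array 3 was above every control. Against the control mean of log2 signals, these arrays were 0.367-fold, 0.504-fold and 1.40-fold. The group means were 11.4 ± 2.73 and 8.44 ± 6.24 (SD, n = 3 each), a ratio of 0.740. The log2 change of -0.65 ± 0.46 (SE) had an interval of -1.71 to 0.41, a limma adjusted p of 0.97 and an exact permutation p of 0.4, and ranked 17th by size of 323. The size rested on single arrays, with a change of -0.25 without TGF-β array 1 (limma adjusted p = 0.97) and of -1.22 without TGF-β array 3 (limma adjusted p = 0.18).

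MiR-200a-3p, which shares the seed of miR-141-3p but is made from the chromosome 1 cluster beside miR-200b, followed the same order of arrays. Its scaled signal was 24.3, 19.9 and 30.6 on control arrays 1 to 3 and 17.6, 18.9 and 37.8 on TGF-β arrays 1 to 3. Again the first 2 TGF-β arrays were below every control and the third was above every control. The means, 24.9 ± 5.38 and 24.8 ± 11.3 (SD, n = 3 each), were almost equal, and the TGF-β arrays were the more spread. The log2 change was -0.08 ± 0.32 (SE; interval -0.82 to 0.66; limma adjusted p = 0.99), and it was 0.56 with no scaling, where the median of all expressed miRNAs was 0.66.

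MiR-429, the third member of the chromosome 1 cluster, was near the detection limit. Its scaled signal was 5.36, 4.50 and 4.19 on control arrays 1 to 3 and 2.91 and 9.45 on TGF-β arrays 2 and 3. On TGF-β array 1 it was 0.731 SD above the blank mean and not detected, so it takes that array's lowest detected signal, 4.06. It carries the AAUACUG seed, yet its TGF-β arrays lay as those of miR-141-3p and miR-200a-3p did, with array 3 above every control and the other 2 below, array 1 both at its measured 1.35 and at the set 4.06. The log2 change was 0.05 ± 0.40 (SE; interval -0.86 to 0.96; limma adjusted p = 0.99), and it was below 0 in the values normalized by the authors (-0.39), with scaling on the probes each array detected (-0.17), on the 75th percentile (-0.067) and after quantile normalization (-0.027). With the measured signal on TGF-β array 1 it was -0.48.

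The pattern of TGF-β arrays 1 and 2 below and array 3 above every control held for 3 of the 6 expressed members, and for 5.88% of all expressed miRNAs. It was read off the members' own values, so its count among them tests nothing. For miR-429 it includes TGF-β array 1, where that miRNA was not detected. The pattern went with the level of the blank spots in part. For miR-200a-3p and miR-141-3p, the 3 arrays with the lowest scaled signals were the 3 with the highest blank means, TGF-β arrays 1 and 2 and control array 2. That held for 2 of 6 members and for 8.98% of all expressed miRNAs, and it was not limited to dim miRNAs, as 7 of the 108 dimmest, 9 of the 107 in the middle and 13 of the 108 brightest had it. This order of arrays was also read off the members, so its count among them tests nothing. At the blank levels of TGF-β array 1, miR-141-3p was 2.23 SD above the blank mean. In brightness, miR-141-3p was 24.1, 26.4 and 23.2 above the blank mean on control arrays 1 to 3. On TGF-β arrays 1 to 3 it was 17.0, 26.4 and 32.3 above it. The median of all human probes less the blank mean was -2.90, -8.83 and -5.26 on control arrays 1 to 3. For TGF-β arrays 1 to 3 that median was -19.3, -9.17 and -6.09. The part of the blank level in these differences was not tested. The labels give no chip, and by the names of their scans the arrays lay on 2 chips. The 3 controls and TGF-β array 1 were on the first and TGF-β arrays 2 and 3 on the second. On the first chip alone the log2 changes were 0.35 for miR-200c-3p, 0.36 for miR-200b-3p, -0.48 for miR-200a-3p and -1.45 for miR-141-3p, each from 1 TGF-β array.

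**Figure D3:**
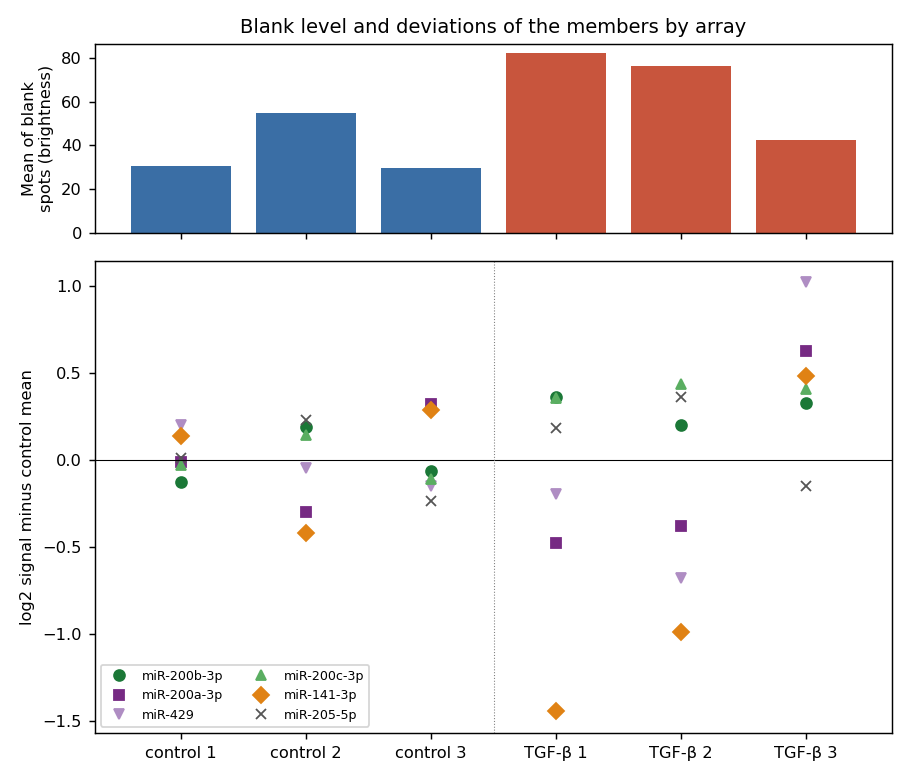
Mean brightness of the blank spots on each array (upper panel, bars from 0) and, on the same arrays, the log2 scaled signal of each expressed member minus its mean over the 3 control arrays (lower panel). On TGF-β arrays 1 and 2 miR-141-3p stood at -1.45 and -0.99 and on array 3 at 0.48, whereas miR-200c-3p stood at 0.35, 0.44 and 0.40.

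Differences within an array do not depend on how that array is scaled, and they were used to compare clusters and seeds. Only the change of a difference between groups is read, since the brightness of 2 probes cannot be compared. The mean of the chromosome 1 cluster (miR-200b-3p, miR-200a-3p, miR-429) minus that of the chromosome 12 cluster (miR-200c-3p, miR-141-3p), in log2, was -1.18, -1.07 and -1.20 on control arrays 1 to 3 and -0.71, -1.16 and -0.94 on TGF-β arrays 1 to 3. The groups overlapped on TGF-β array 2, and the means differed by 0.22, from -1.15 ± 0.075 to -0.94 ± 0.23 (SD, n = 3 each). On TGF-β array 1 miR-429 entered at that array's lowest detected signal, 4.06. With its measured 1.35 there, the means differed by 0.038. Without miR-429 they differed by 0.24.

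The contrast of seeds differed by more and also overlapped. The mean of miR-200b-3p, miR-200c-3p and miR-429 minus that of miR-200a-3p and miR-141-3p was 1.38, 1.89 and 1.02 on control arrays 1 to 3 and 2.56, 2.10 and 1.46 on TGF-β arrays 1 to 3. TGF-β arrays 1 and 2 were above every control, and TGF-β array 3 lay among the controls. The mean was 1.43 ± 0.43 in control and 2.04 ± 0.55 in TGF-β cells (SD, n = 3 each), a change of 0.61, or 0.71 without miR-429. With the measured signal of miR-429 on TGF-β array 1 the change was 0.43. No test was made of contrasts that average over members.

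The 5 members detected on all 6 arrays form 10 pairs, compared in the same way after their values had been seen. In 1 of the 10 pairs the groups did not overlap, near the share of 10.6% over all pairs of miRNAs detected on all 6 arrays. That pair was miR-200a-3p and miR-141-3p, which share the seed and differ by 2 bases but come from different clusters. The log2 difference of miR-200a-3p minus miR-141-3p was 0.98, 1.25 and 1.17 on the controls and 2.11, 1.75 and 1.28 on TGF-β arrays 1 to 3. On TGF-β array 1, where the difference was largest, miR-141-3p was only 2.23 SD above the blank mean. The separation rested on a small gap between control array 2 and TGF-β array 3, with a change of 0.57 and an exact permutation p of 0.1, or 0.5 after Benjamini-Hochberg adjustment over the 10 pairs.

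Within the clusters, the partners lay further apart on TGF-β arrays 1 and 2. MiR-200c-3p minus miR-141-3p was 4.06, 4.80 and 3.84 on the controls and 6.03, 5.66 and 4.15 on TGF-β arrays 1 to 3. TGF-β arrays 1 and 2 were far above the controls and array 3 was among them, so that the change of 1.05 had an exact permutation p of 0.2. MiR-200b-3p minus miR-200a-3p changed by 0.37 (exact permutation p = 0.4). The seed partners miR-200b-3p and miR-200c-3p stayed closer, at -1.21 ± 0.081 in control and -1.32 ± 0.12 in TGF-β cells (SD, n = 3 each; exact permutation p = 0.3). MiR-205-5p minus miR-200c-3p changed by -0.27, from -1.09 ± 0.11 to -1.36 ± 0.25 (SD, n = 3 each), with an exact permutation p of 0.2.

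Taken as pairs by replicate number, a pairing that is assumed, the arrays showed further differences of one sign. Among the 6 expressed members, 3 differed in the same direction in all 3 pairs, as did 24.8% of all expressed miRNAs. In log2, TGF-β minus control in pairs 1 to 3, these were miR-200c-3p (0.39, 0.29 and 0.51), miR-200b-3p (0.49, 0.0087 and 0.39) and miR-205-5p (0.17, 0.13 and 0.081). MiR-141-3p (-1.59, -0.57 and 0.20), miR-200a-3p and miR-429 were lower in pairs 1 and 2 and higher in pair 3. The seed contrast was higher with TGF-β in each pair (1.18, 0.21 and 0.44), as was miR-200c-3p minus miR-141-3p (1.97, 0.86 and 0.31), and miR-205-5p minus miR-200c-3p was lower in each (-0.21, -0.16 and -0.43). The cluster contrast had both signs (0.48, -0.095 and 0.27). An exact sign-flip permutation test over 3 pairs cannot give a p below 0.25.

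**Figure D4:**
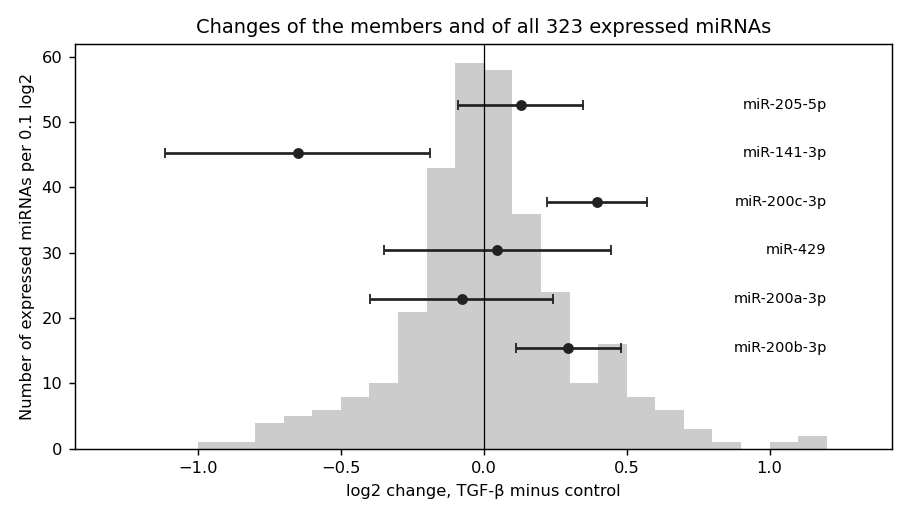
Log2 change, TGF-β minus control, of each expressed member (points, with the SE of the limma fit) over the distribution of the log2 changes of all 323 expressed miRNAs (grey, number per 0.1 log2 on the y axis, which does not apply to the points). The members ran from -0.65 for miR-141-3p to 0.40 for miR-200c-3p, within the range of all expressed miRNAs of -0.91 to 1.18.

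The miRNAs whose signals followed miR-200c-3p most closely over the 6 arrays, among the other 291 detected on all of them, were miR-222-3p (r = 0.967), miR-193b-3p (r = 0.966) and miR-23a-3p (r = 0.966). MiR-200b-3p ranked 13th (r = 0.885), whereas miR-141-3p from the same cluster had r = -0.51 and miR-200a-3p r = -0.22. For miR-205-5p the closest were miR-6860 (r = 0.936), miR-1915-3p (r = 0.924) and miR-6766-3p (r = 0.921), and it had r = -0.89 with miR-200a-3p and r = -0.82 with miR-141-3p. These correlations describe 6 arrays that share their scaling, 3 in each of 2 groups.

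Other miRNAs listed as epithelial or as restraining EMT were counted from a list of 18, such as miR-34a, miR-101 and the miR-30 and miR-183 families. Of the 17 matched by name 8 were expressed, and 0 of them passed limma's adjusted p (0% of all expressed miRNAs), 0 had an unadjusted p under 0.05 (6.5% of all) and 0 had groups that did not overlap (9.91% of all). Their median log2 change was 0.08. Of 14 miRNAs known as induced by TGF-β or as mesenchymal, 8 were expressed with a median log2 change of 0.28. None passed limma's adjusted p, and 3 of the 8 had an unadjusted p under 0.05, against 6.5% of all expressed miRNAs. On every TGF-β array 4 of the 8 were higher than every control, against 7.12% of all, and 0 lower, against 2.79%. They included miR-181a-5p, at 33.0 ± 2.60 in control and 56.2 ± 3.38 in TGF-β cells (log2 change 0.77, limma adjusted p = 0.43), and miR-181b-5p, at 6.59 ± 1.08 and 11.2 ± 1.57 (0.77, limma adjusted p = 0.43). The third with the largest difference was miR-222-3p, at 209 ± 26.8 and 283 ± 11.7 (log2 change 0.45, limma adjusted p = 0.69). All 6 means have an SD over n = 3 arrays. Both lists were chosen with earlier results of these data known, so the counts describe the lists and test nothing.

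The labelled cell type was checked on its markers. The 3 epithelial markers used, miR-200b-3p, miR-141-3p and miR-200c-3p, are members themselves, and each was detected on every array. Not all epithelial miRNAs were present, since of the 17 in the list above 8 were detected on no array, among them miR-375, miR-194-5p, miR-215-5p and miR-183-5p. Of 10 markers of stromal, blood, endothelial and liver cells, 0 were expressed and 9 were detected on no array, including the stromal miR-143-3p and miR-145-5p and the endothelial miR-126-3p. Of all 2555 human miRNAs, 508 were detected on at least 1 array and 323 were expressed. Absence was thus the common case on these arrays, and these counts say little about the cell type. The marker detected at all was miR-223-3p, a miRNA of myeloid blood cells, on 1 array at 6.44 SD.

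**Figure D5:**
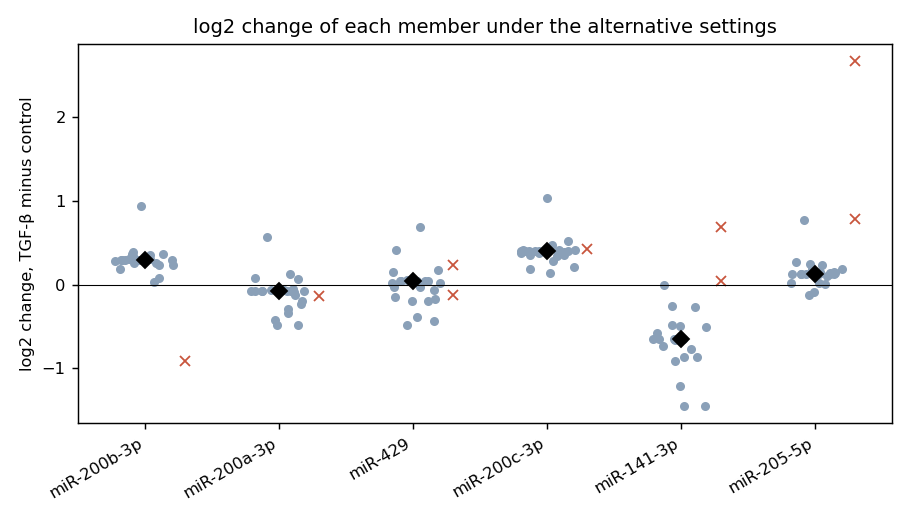
Log2 change, TGF-β minus control, of each expressed member under the main processing (black diamonds) and under the alternatives (blue points), with the alternatives that use the local background of each spot as red crosses. MiR-200c-3p stayed above 0 throughout, from 0.14 to 1.04, and miR-429 lay on both sides of 0, from -0.48 to 0.69.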

How the data were processed

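Scanner files of 6 arrays were used. In them the authors deposited the intensity of each spot (a median over its pixels, linear, not normalized) and its local background, and in a second table normalized intensity values, each array having a median of 25 over its listed miRNAs, used as an alternative. The paper names the 3D-Gene software and that median; the detection rule is not given in the sources used here. Spots failing the scanner flags, 0 to 2 human probes per array, were left out. The local background followed the spot itself (r = 0.928 to 0.983 over log2 values), so the 229 blank spots gave the background, as their mean. Signals more than 2 SD above the blank mean were detected. Arrays were scaled to a median of 25 over the 292 miRNAs detected on all 6, signals below detection were set to the array's lowest detected signal (1.83 to 4.31), and log2 was taken. The number of arrays limits the precision.

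Groups came from the labels. The 323 expressed miRNAs were compared with limma 3.58.1 (lmFit, eBayes, no block) in R 4.3.3, adjusted by Benjamini-Hochberg over all of them, and single miRNAs by 2-sided exact permutation in scipy 1.17.1. The fit was tested on simulated data. Same-numbered arrays deviated together (r = 0.122, 0.244 and 0.333 over 322 miRNAs), so the numbers were taken as pairs. No correlation was computed between differently numbered arrays, so these values do not establish a pairing. The pairing is assumed from the data, as the labels do not say what a number marks. Named miRNAs were the 8 members, the other arms of their precursors, miRNAs sharing a seed with a member, the 3 most correlated with miR-200c-3p and with miR-205-5p, and up to 3 per list with non-overlapping groups. The members and lists were chosen with earlier results of these data known. Alternatives changed the background, detection, floor, filter, scaling, block, chip and test, or left out 1 array.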

Additional observations from a re-analysis of the deposited data

How the results depend on the processing

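No member passed an adjusted p of 0.05 in any of the 26 alternatives, with limma or with the methods' t-test. Over all expressed miRNAs the count was 0, except 1 with the methods' t-test (21 unadjusted) and 1 without TGF-β replicate 3. With the replicate number as a block 0 miRNAs passed and 31 had an unadjusted p under 0.05. The limma adjusted p was then 0.50 for miR-200c-3p and 0.49 for miR-141-3p.

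MiR-200c-3p kept its direction throughout (0.14 to 1.04). Other directions turned, in log2. MiR-200b-3p turned to -0.91 with normexp on the local background, and miR-141-3p to 0.047 there and to 0.68 with the local background subtracted. MiR-200a-3p turned to 0.56 with no scaling, and to 0.12, 0.073 and 0.081 without TGF-β replicate 1, TGF-β replicate 2 or control replicate 3. Without TGF-β replicate 3 it was -0.43. MiR-205-5p turned to -0.13 in the authors' values and -0.087 on own detected probes, and otherwise ran up to 2.67 with the local background subtracted (0.79 with normexp on it). It was 0.011 and 0.013 without control replicate 3 or TGF-β replicate 2, and 0.24 and 0.27 without control replicate 2 or TGF-β replicate 3. MiR-429 turned to -0.067 (75th percentile), -0.20 (chip as a block, and chip 1 alone), -0.17 (own detected probes), -0.48 (no floor), -0.15 (normexp on the blank spots), -0.12 (normexp on the local background), -0.027 (quantile) and -0.39 (authors' values), and to -0.44 without TGF-β replicate 3 and -0.029 without control replicate 3. Leaving out 1 array gave at most 0.41, without TGF-β replicate 2.

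The median over the expressed members (0.09) was -0.13 on own detected probes, 0.68 with the local background subtracted, over 3 members, 0.73 with no scaling and -0.23 in the authors' values. Leaving out 1 array gave -0.079 to 0.21, the lowest without TGF-β replicate 3. Members whose groups did not overlap, 2 in the main processing, were 0 on the 75th percentile, on own detected probes, with the local background subtracted and in the authors' values, and 1 in 4 settings. That 1 was miR-200c-3p on the 90th percentile and with normexp on the blank spots, miR-200a-3p with no scaling, and miR-200b-3p with normexp on the local background, there lower with TGF-β. They were 5 on chip 1 alone and 2 to 5 when 1 array was left out, with 5 without TGF-β replicate 3.

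The cluster contrast (0.22) was 0.038 with no floor, -0.074 with normexp on the blank spots, -0.63 with normexp on the local background and 0.44 on chip 1 alone, and 0.10 to 0.33 without 1 array, the lowest without TGF-β replicate 1 and the highest without TGF-β replicate 2. The seed contrast (0.61) was -0.16 with normexp on the local background and 1.13 on chip 1 alone, and 0.35 to 0.90 without 1 array, the lowest without TGF-β replicate 1 and the next, 0.41, without control replicate 3. MiR-205-5p minus miR-200c-3p (-0.27) was 0.36 with normexp on the local background and -0.057 after quantile normalization, and -0.36 to -0.12 without 1 array, the smallest without TGF-β replicate 3.

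The cause of these changes was not tested. Subtracting the local background gave no value for miR-200a-3p, miR-200b-3p and miR-200c-3p, and detection at 3 SD and the filter to all 6 arrays gave none for miR-429. The median of all human probes lay below the blank mean, so the 90th percentile replaced it. The settings without a floor and with normexp on the blank spots were chosen after seeing the data. Low signal limits miR-429 and miR-141-3p most.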
